A study of Xenopus laevis with 3 samples.

Results

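The respiratory chain of the inner mitochondrial membrane passes electrons from NADH and succinate through complexes I, II and III and cytochrome c to oxygen at complex IV. Complexes I, III and IV pump protons as they do so, and the ATP synthase uses the proton gradient to make ATP. Most subunits are encoded in the nucleus, while a small core of complexes I, III, IV and the ATP synthase is encoded in mitochondrial DNA. In the frog, mitochondria of the early embryo are inherited from the egg, together with a large store of maternal mRNA that is still present when the embryo gastrulates.

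The nuclear genes of these complexes were examined on 3 arrays of *Xenopus laevis* embryos at stage 11, a gastrula stage. A probe set, the group of short probes that reports 1 transcript on the array, was included when the platform annotation gave it a single gene symbol that starts with nduf, uqcr, atp5 or cox followed by a digit, or is sdha, sdhb, sdhc, sdhd, cycs or cyc1. This rule used names and no measured value. It found 114 of the 32539 probe sets of the array (15495 of which carry a single symbol), and these stand for 93 of its 11303 gene symbols and, with the homeologs of the long (.L) and short (.S) chromosomes of this allotetraploid frog joined, 68 genes. Complex I subunits had 37 probe sets, the ATP synthase with its inhibitor 21, complex III with cyc1 18, complex IV subunits 18, complex IV assembly factors 9, complex II 6, complex I assembly factors 4 and cytochrome c (cycs) 1. No probe set carried the symbol sdhc, and no member was a subunit encoded in mitochondrial DNA. The naming rule does not cover most symbols of such subunits, so this does not show whether the array carries them.

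Embryos had been injected with water (control), with mRNA of the glycine-gated chloride channel GlyR and kept in its opener ivermectin (GlyR+IVM), or with mRNA of the 666 chimera, a dominant-negative subunit of the ATP-sensitive potassium channel (DN-KATP). The study chose these channels because both depolarize the injected cells through different ions. The control embryos received neither mRNA nor, as described, ivermectin, so mRNA injection as such cannot be told apart from depolarization, and the sources differ on whether injection was at the 1-cell or the 4-cell stage. No strain was given. Each array held RNA pooled from 50 embryos and there was 1 array per condition, so no standard deviation, interval or p-value can be given, and every difference below is a difference between these arrays. In pools of whole embryos, fewer cells that carry a transcript and less of it per cell cannot be told apart.

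Signals are the deposited MAS 5.0 values on a linear scale, with a 2% trimmed mean of 500 to the nearest whole number on each array. The median signal over all probe sets lay between 92.7 and 101. The gastrula markers gave signals of at least 40 at all 22 of their probe sets on each array, and these summed to 52208 for the control, 53834 for GlyR+IVM and 57806 for DN-KATP. The sums hide moves of single markers in both directions. For example, tbxt.L had 7556, 5690 and 4708, and ventx2.1.L 4405, 6567 and 8011. Of the 18 probe sets of markers of later tissue, 6, 11 and 9 reached 40, with a summed signal of 6272, 12486 and 7692, and without the 2 probe sets of the muscle actin gene actc1.L the sum was 2661, 3814 and 2458. The brighter actc1.L probe set had 2672, 6311 and 3847, and the muscle myosin light chain gene myl1.L 1553, 2115 and 973. The homeolog myl1.S had 163, 417 and 195. These muscle genes were highest in GlyR+IVM, but the neural markers of the same list were highest in DN-KATP. Of these, elavl3.L had 623, 717 and 760, and tubb2b.S 128, 119 and 190. The 3′ over 5′ ratio of gapdh, a sign of RNA integrity, was 4.53, 3.41 and 3.95, lowest in GlyR+IVM, while the 3′ over middle ratio of actin was 8.04, 7.37 and 9.10, highest in DN-KATP. The part of these differences in the results below was not tested.

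On the deposited scale, the main feature of the respiratory chain and ATP synthase transcripts was a small shift to lower signals in DN-KATP that ran through most of the members, with no shift of that size in GlyR+IVM. A signal of 40 or more, taken here as measurable, was reached by 110 of the 114 on any array and by 108 on all 3. Over these 110 the median log2 ratio to the control was -0.35 in DN-KATP, which is 21.3% below the control, and -0.06 in GlyR+IVM. Over all 12033 probe sets with a single symbol and a signal of at least 40 the medians were -0.0039 and -0.0082, and over all 23003 probe sets at that floor they were 0.05 and 0.01. In DN-KATP 92 of the 110 signals were below the control, where 50.4% of all named probe sets were, and in GlyR+IVM 63 were, where 50.8% were. A ratio at least 1.5-fold below the control was seen at 22 members in DN-KATP (21 with the floor applied to the control signal, which leaves out cox4i2.L), against 8.86% of all named probe sets, and at 4 in GlyR+IVM, against 8.43%. Both ratios share the control array, so a high control signal lowers both.

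**Figure D1:**
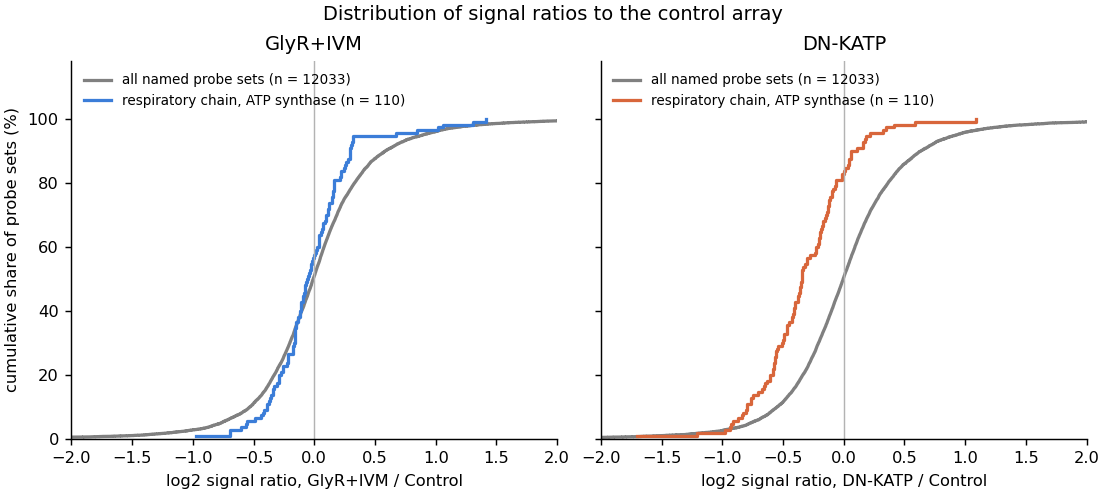
Cumulative share (percent) of probe sets by log2 signal ratio to the control array, for GlyR+IVM (left) and DN-KATP (right), from 1 array per condition. Grey lines are the 12033 named probe sets and coloured lines the 110 members with a signal of at least 40; in DN-KATP the coloured line lies to the left of the grey one over most of its range, and 92 of the 110 members are below 0.

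Set against GlyR+IVM with the control left out, the DN-KATP signal was lower at 91 of the 110 members, where 49.9% of all named probe sets were lower, with a median log2 ratio of -0.28. This was not particular to the members. Proteasome subunits and cytosolic ribosomal proteins, described below, had medians of -0.35 and -0.30 in the same comparison. The ATP synthase members were lower in DN-KATP than in GlyR+IVM at 20 of 21 probe sets and complex I subunits at 33 of 36. Complex IV assembly factors went the other way at 4 of 7 probe sets, with a median of 0.14. At least 2-fold lower in DN-KATP than in GlyR+IVM were 3 members (atp5pd.S, ndufaf2.L and cox4i2.L), against 3.35% of all probe sets, and 0 were at least 2-fold higher, against 4.65%.

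Few members passed the study's criterion of a 2-fold change. With a floor of 40 on the higher signal in place of the authors' present call, 4 probe sets were called higher in GlyR+IVM, against 4.83% of all 23003 probe sets, and 0 lower, against 2.86%. In DN-KATP 1 was called higher, against 5.49%, and 1 lower, against 2.58%. Both arrays shared 1 higher member, against 1.77%, and 0 lower members, against 0.665%. At this floor each share of the members was below that of all probe sets, and 105 of the 110 members were not called in either comparison. For higher calls in GlyR+IVM this depended on the background. Among the 12033 named probe sets 441 were called, a share close to that of the members. With a floor of 100, 4 of 104 members were called, against 2.75% of all probe sets, so that share was above the background.

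The member called higher in both arrays was ndufa6.S, which encodes an accessory subunit of complex I. Its control signal of 426 compares with 1056 in GlyR+IVM and 906 in DN-KATP, or 2.48-fold and 2.13-fold above the control. It has a single probe set here and no .L homeolog among the members, and once a common median or the spike-ins set the scale it was not called in DN-KATP. The member called lower in DN-KATP was atp5if1.L, the inhibitor protein that holds back ATP hydrolysis by the ATP synthase, whose signal was 1595 for the control embryos, 984 for GlyR+IVM and 692 for DN-KATP. It fell 2.31-fold in DN-KATP, and the GlyR+IVM signal lay between the other arrays. The gene atp5pd.S, for a subunit of the peripheral stalk of the ATP synthase, rose 2.08-fold in GlyR+IVM, from 1166 to 2426, and had 944 in DN-KATP, while its homeolog atp5pd.L had 325, 335 and 334. The complex I assembly factor gene ndufaf2.L rose in GlyR+IVM at both of its probe sets, from 47.5 to 127 and from 93.4 to 190, and had 60.5 and 97.4 in DN-KATP. Both ndufaf2.L probe sets stem from 1 target cluster, and the second is of a type that can cross-hybridize. These calls in GlyR+IVM depended on the setting: with 32 added to every signal neither ndufaf2.L probe set was called, after scaling to a common median the cross-hybridizing ndufaf2.L probe set and atp5pd.S were not, and on the spike-in scale none of the 4 was.

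**Figure D2:**
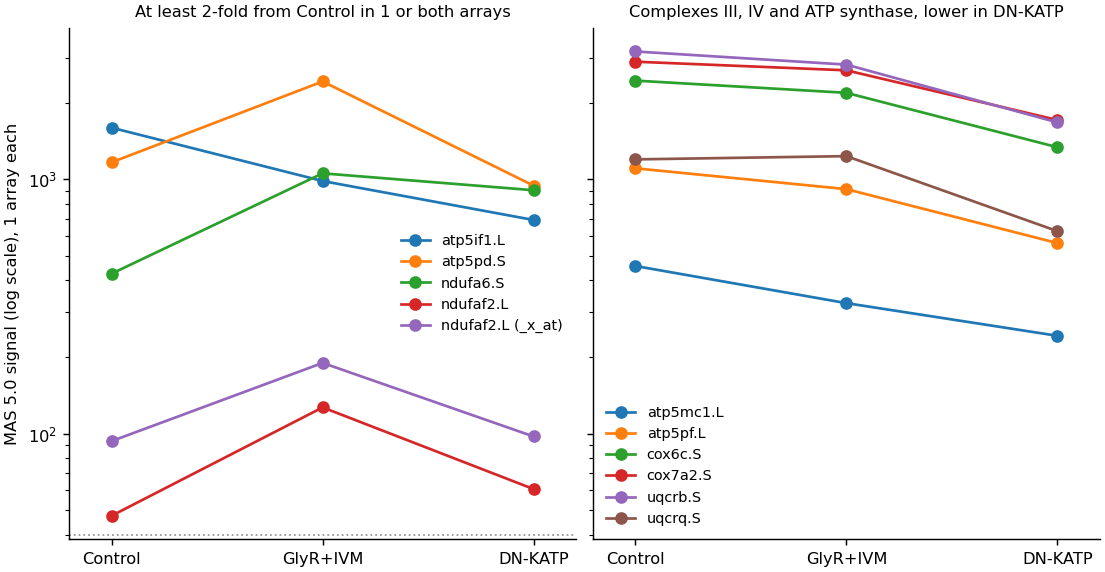
MAS 5.0 signals (log axis) on the 3 arrays, 1 point per array; the dotted line on the left is a signal of 40. On the left are the 5 probe sets at least 2-fold from the control in GlyR+IVM, DN-KATP or both, of which only ndufa6.S is high in both depolarized arrays; on the right are 6 probe sets of complex III, complex IV and the ATP synthase whose DN-KATP signal is the lowest of the 3.

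Complex I takes electrons from NADH in its matrix arm and pumps protons in its membrane arm. Of 36 measurable probe sets of its subunits, 32 were below the control in DN-KATP and 22 in GlyR+IVM, with medians of -0.46 and -0.08 on the log2 scale. The lowest DN-KATP ratios of the class were at ndufa4.L, ndufs6.S, ndufb4.L and ndufb10.S. Transcripts of ndufb10.S, a membrane arm subunit, read 1279, 1136 and 810 on the brighter probe set and 596, 404 and 351 on the dimmer one. The control signal of ndufb4.L, also of the membrane arm, was 186, against 122 in GlyR+IVM and 107 in DN-KATP. Its homeolog ndufb4.S was read by a pair of probe sets, one with 152, 189 and 108 and one with 146, 148 and 97.7, so for this gene DN-KATP was lowest at all 3 probe sets and GlyR+IVM was not. In the matrix arm, ndufs3.S, for a core subunit near the quinone site, had 115, 90.6 and 70.3, and ndufs6.S, for an accessory subunit, 193, 173 and 110. The homeolog ndufs3.L was lowest in GlyR+IVM, with 519, 409 and 440. The flavoprotein gene ndufv1.L, whose product oxidizes NADH, differed little, with 1635, 1616 and 1430. The iron-sulfur subunit gene ndufs1.L had 1629, 1825 and 1531 at its brighter probe set and 58.9, 93.8 and 78.5 at a dim one, the second above the control in both arrays. Besides ndufa6.S and this ndufs1.L probe set, ndufb3.S (256, 274 and 291) and ndufs7.L (970, 868 and 1010) were the measurable members of the complex above the control in DN-KATP. The gene ndufa4.L, whose product is counted in complex IV in mammals, had 6676, 5107 and 3756, and ndufa4.S 3351, 3555 and 2943.

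Of the complex I assembly factors, which help to build the complex and are not part of it, ndufaf4.L had 1457, 1372 and 1155 and the methyltransferase gene ndufaf7.S 675, 828 and 506. Their class had the highest median in GlyR+IVM, 0.66 on the log2 scale over 4 probe sets, and this rested on ndufaf2.L: with 1 value per gene symbol it was 0.29.

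Complex II, the succinate dehydrogenase shared with the citric acid cycle, showed the smallest difference among the complexes in DN-KATP, with a median of -0.06 and 4 of 6 probe sets below the control. The flavoprotein gene sdha differed between homeologs. Its .L signal was 2631, 2495 and 2718, and its .S signal 1101, 749 and 748. The iron-sulfur subunit gene sdhb.S was above the control in both arrays, with 1750, 2177 and 1954. The membrane anchor gene sdhd.L had 564, 430 and 519, while the probe sets of sdhd.S read 489, 507 and 489 and, respectively, 369, 388 and 289. Thus 2 probe sets of sdhd.S differed in DN-KATP by more than the class median.

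Complex III passes electrons from ubiquinol to cytochrome c. Of 17 measurable probe sets 14 were below the control in DN-KATP and 9 in GlyR+IVM, with medians of -0.17 and -0.03. The DN-KATP median depended on how probe sets were counted. It was -0.33 with 1 value per gene symbol and -0.35 without the probe set types that can cross-hybridize. In GlyR+IVM the medians under these settings were 0.0062 and -0.09. The small subunit genes uqcrb.S and uqcrq.S had the lowest DN-KATP ratios of the complex. The signal of uqcrb.S was 3183, 2826 and 1674, and that of uqcrq.S was 1198, 1233 and 625, so for both the GlyR+IVM signal was near the control. The core subunit genes uqcrc1.L (1285, 1520 and 861), uqcrc2.L (1488, 1768 and 1161) and uqcrc2.S (1085, 1062 and 819) were also lowest in DN-KATP. For the Rieske iron-sulfur protein gene uqcrfs1.S, 1 probe set had 4582, 5067 and 6882, the highest of the 3 in DN-KATP, and another, which can cross-hybridize, 10710, 11248 and 9776. For the homeolog uqcrfs1.L a bright probe set read 11629, 10378 and 11516 and a dim one 180, 161 and 124. Cytochrome c1, the heme subunit, had 1009, 758 and 729 at 1 probe set of cyc1.L, 298, 268 and 273 at the other, and 788, 753 and 701 at cyc1.S. The small subunit gene uqcr10.S was measured by 6 probe sets, more than any other member. Its 2 brightest, both of a type that can cross-hybridize, had 6816, 8359 and 6525 and 4272, 5165 and 3984, higher in GlyR+IVM and close to the control in DN-KATP, and its dimmer ones had 276, 342 and 298, 286, 263 and 225, 54.4, 42.4 and 68.2, and 34.2, 27.1 and 29.1, the last below 40 throughout. Cytochrome c itself, the mobile carrier between complexes III and IV, had 12235, 13337 and 10422 at cycs.S.

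Complex IV reduces oxygen. The probe sets of its nuclear-encoded subunits were taken by symbol, so they include cox7a2l.L and leave out ndufa4, which is counted with complex I here. They were below the control at 15 of 18 probe sets in DN-KATP and 11 in GlyR+IVM, with medians of -0.36 and -0.06. The cox6c.S signal was 2444, 2189 and 1337, and that of cox7a2.S was 2901, 2683 and 1710, 1.83-fold and 1.70-fold below the control in DN-KATP and near it in GlyR+IVM. The homeolog cox7a2.L had 4433, 4121 and 3366. The gene cox5a.S had 5832, 7147 and 4497 and cox4i1.S, for the ubiquitous form of subunit 4, 1403, 1358 and 1045. Above the control in DN-KATP were cox5b.2.L (238, 250 and 268) and both probe sets of cox6a1.L (324, 360 and 376 at 1 that can cross-hybridize, and 4785, 4422 and 4994), while cox6a1.S had 4220, 3444 and 2853. The cox4i2.L probe set, with 30.2, 54.2 and 9.24, was near or below the floor, and cox4i2.S had 2960, 2480 and 2526.

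The complex IV assembly factors were the class with the lowest median in GlyR+IVM, -0.42 on the log2 scale against -0.28 in DN-KATP. They were below the control at 6 of 7 measurable probe sets in GlyR+IVM and at all 7 in DN-KATP. The gene cox10.L, for an enzyme of heme A synthesis, had 283, 175 and 192 at its measurable probe set and 30.4, 14.2 and 21.1 at the other. The copper chaperone gene cox17.L had 1416, 1158 and 1051 at a probe set that can cross-hybridize, 45.1, 23.0 and 28.3 at another and 22.6, 14.6 and 23.3 at 1 more, below the floor throughout, and cox17.S had 1080, 797 and 939. The genes cox18.L (351, 319 and 290) and cox16.L (921, 947 and 848) were nearest to the control in GlyR+IVM, and cox20.L had 526, 393 and 465.

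The ATP synthase has a catalytic head, a membrane ring of c subunits and central and peripheral stalks. Of its 21 probe sets, atp5if1.L included, 17 were below the control in DN-KATP and 11 in GlyR+IVM, with medians of -0.35 and -0.0011. In the catalytic head, atp5f1a.L (alpha) had 2121, 2104 and 1598, atp5f1a.S 2182, 1762 and 1552, and atp5f1b.S (beta) 11778, 12734 and 10578. In the central stalk, atp5f1d.L had 806, 860 and 452, atp5f1c.L 1509, 1528 and 1187, and atp5f1c.S 1387, 1541 and 1319. In the peripheral stalk, both homeologs of atp5pf were lowest in DN-KATP, atp5pf.L with 1105, 915 and 561 and atp5pf.S with 1846, 1661 and 1060. The stalk gene atp5po.S was lowest in GlyR+IVM, with 1258, 978 and 1243. Another stalk gene, atp5pb.S, was higher than the control in both arrays at a dim probe set (220, 254 and 246) and not at a brighter one (990, 939 and 774). The c-ring gene atp5mc1.L had 456, 326 and 242, atp5mc1.S 934, 1119 and 829, and atp5mc3.S, for the same c subunit from a separate gene, 10491, 11755 and 10807. Over these 21 probe sets, the DN-KATP ratio ran from 2.31-fold below the control (atp5if1.L, the inhibitor) to 1.12-fold above it (the dim atp5pb.S probe set). The lowest ratio of a subunit gene was 1.97-fold below the control, at atp5pf.L.

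**Figure D3:**
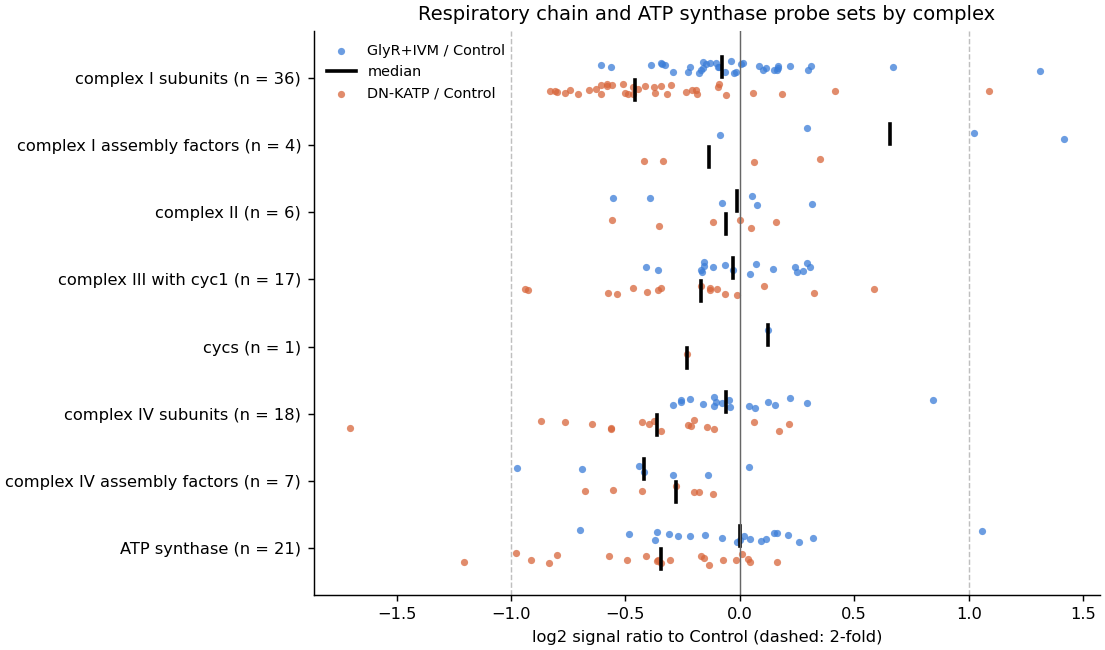
Log2 signal ratio to the control array for each measurable probe set, by complex, for GlyR+IVM (blue) and DN-KATP (orange), with black bars at the class medians and dashed lines at 2-fold. All 8 class medians lie below 0 in DN-KATP, from -0.06 in complex II to -0.46 in complex I subunits, while those of GlyR+IVM lie on both sides of 0.

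Repeated probe sets of a gene are the only repeat measures on these arrays, and they share the RNA and the hybridization. Homeologs are separate gene copies, so a pair of them is not a repeat measure. No share over all homeolog pairs of the array was taken, and most single members were below the control in DN-KATP. Both homeologs were measurable for 25 genes. In DN-KATP both were below the control for 20 of them, both above for 0 and on opposite sides for 5 (atp5pd, cox6a1, ndufs7, sdha and uqcrfs1). In GlyR+IVM both were below for 10, both above for 3 and on opposite sides for 12. The homeologs' log2 ratios differed by a median of 0.27 in either comparison, and by up to 1.48 in DN-KATP at cox4i2. Probe sets with the same symbol, 23 pairs over 14 symbols with 10 of the pairs from uqcr10.S, differed by a median of 0.29 in DN-KATP and 0.30 in GlyR+IVM.

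**Figure D4:**
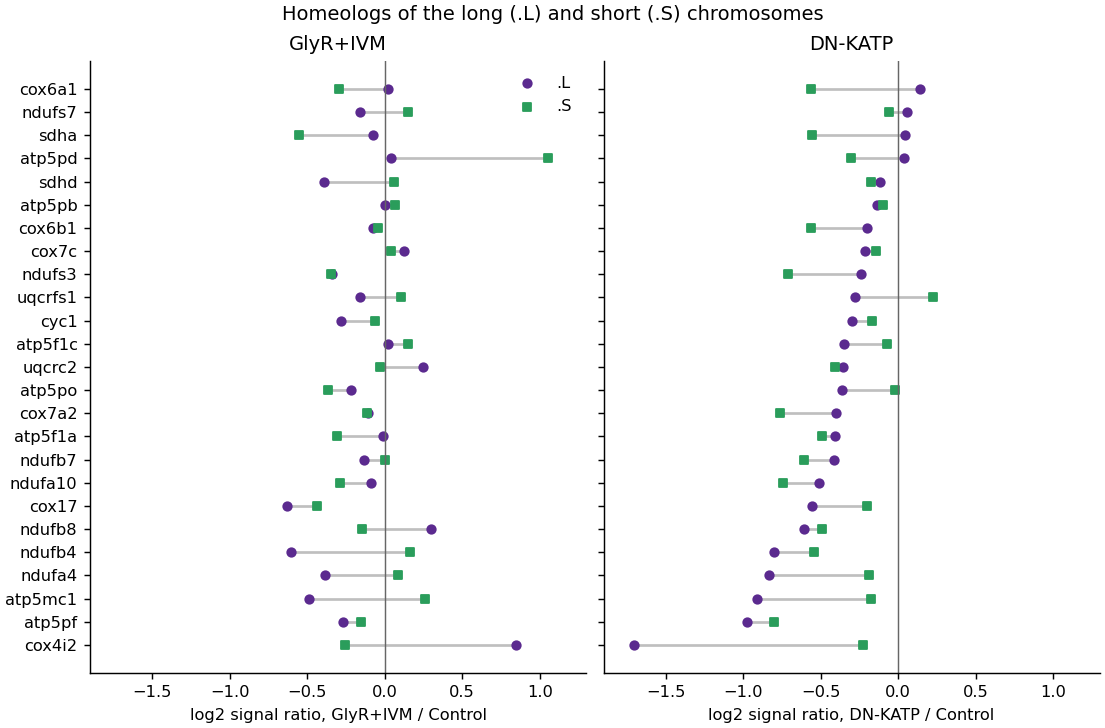
Log2 signal ratio to the control array of the .L (circles) and .S (squares) homeologs of 25 genes, each the mean over its measurable probe sets, for GlyR+IVM (left) and DN-KATP (right). In DN-KATP both homeologs lie below 0 for 20 genes, and in GlyR+IVM for 10.

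The shift in DN-KATP was seen over most of the range of signals. For probe sets with a mean signal over the 3 arrays (geometric) of 100 to 300, 14 members had a median log2 ratio of -0.45, beside 0.04 for all named probe sets in that range. From 300 to 1000, the medians were -0.35 for 36 members and -0.04 for all, and from 1000 to 3000 they were -0.36 for 34 members and -0.07 for all. At 3000 and above, 18 members had a median of -0.17 and all named probe sets -0.02. Between 40 and 100 the 6 members had a median of -0.02, beside 0.10 for all.

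Further genes of mitochondrial function outside the naming rule had a median nearer to 0 in DN-KATP, a difference that was not tested. A list of 54 genes for further assembly factors, carriers and mitochondrial transcription had 54 probe sets for 30 of them, 53 measurable, with a median of -0.10 and 34 below the control. For 28 probe sets of assembly factors the median was -0.11, for 10 of carriers and the outer membrane channel 0.08, and for 15 of mitochondrial transcription and its regulators -0.28, where 13 were below the control. These medians count every probe set, and none was taken with 1 value per gene. In the mitochondrial transcription list several probe sets were of 1 gene, tfb1m.L. Each was below the control in DN-KATP, with log2 ratios from -0.53 to -0.04. Several of the assembly factor probe sets were of 1 gene, tmem126a.L. Each of these was above the control in DN-KATP, with log2 ratios from 0.06 to 0.44. The genes sco2.S, coa5.L and bcs1l.L also had several probe sets, each below the control, with log2 ratios from -0.67 to -0.01. Probe sets of atpaf2.S and ecsit.S lay on both sides. The part of such repeats in the assembly factor median was not tested. In the whole list 1 probe set was called higher in DN-KATP, against 5.49% of all probe sets, and 2 in GlyR+IVM, against 4.83%. Called lower was 1 in DN-KATP, against 2.58%, and 1 in GlyR+IVM, against 2.86%. The lower calls were timmdc1.L in DN-KATP (43.7, 43.0 and 9.98) and ecsit.S in GlyR+IVM (73.6, 5.53 and 52.6), both near the floor. The other ecsit.S probe set had 113, 161 and 159. Higher in both was slc25a4.L, for an ADP/ATP carrier, at low signals (16.2, 47.0 and 40.6), while 3 probe sets of slc25a5.L, another carrier of this family, had 24425 to 25329 in the control and 25821 to 27212 in DN-KATP. The mitochondrial transcription factor gene tfam.L read 641, 703 and 529 at one of its probe sets and 1492, 1330 and 1017 at the other, and the regulator gene nrf1.S 491, 419 and 415.

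Lower signals in DN-KATP were not limited to the respiratory chain. In groups of other housekeeping genes, picked after the values were seen and with no test of the difference, the median log2 ratio in DN-KATP was -0.30 for 57 probe sets of mitochondrial ribosomal proteins, -0.25 for 29 of the protein import machinery (timm and tomm), -0.24 for 62 of proteasome subunits and -0.16 for 140 of cytosolic ribosomal proteins. The GlyR+IVM medians of these groups were -0.15, -0.17, 0.05 and 0.14. Set directly against GlyR+IVM, the DN-KATP medians of these groups were -0.18, -0.14, -0.35 and -0.30. In that comparison DN-KATP was lower at 39 of 57, 20 of 29, 50 of 62 and 121 of 140 probe sets. Of these groups, proteasome subunits had the share of signals below the control in DN-KATP nearest to that of the respiratory chain and ATP synthase, 53 of 62.

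The median of the members minus that of all named probe sets was -0.34 in DN-KATP and -0.05 in GlyR+IVM. Scaling to a common median or to spike-ins multiplies every signal of an array alike and so cannot move this difference, other than through the floor. Quantile normalization can, and gave -0.29 in DN-KATP and -0.02 in GlyR+IVM. Under the alternatives of floor, added signal and probe choice the difference lay between -0.36 and -0.32 in DN-KATP and between -0.07 and -0.03 in GlyR+IVM. The median ratio to the control itself moved with the scaling. Scaling to a common median lowered the median of all named probe sets to -0.14 in DN-KATP, and scaling to the hybridization spike-ins lowered it to -0.47 in DN-KATP and -0.45 in GlyR+IVM. The number of members below the control moved with it. In DN-KATP it was 100 of 110 with a common median, where 64.0% of all named probe sets were below, and 108 on the spike-in scale, where 86.0% were. In GlyR+IVM it was 71 with a common median, where 57.9% of all named probe sets were below, and 104 on the spike-in scale, where 86.5% were. On the spike-in scale the single cytochrome c probe set was among those that went from above to below the control in GlyR+IVM.

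**Figure D5:**
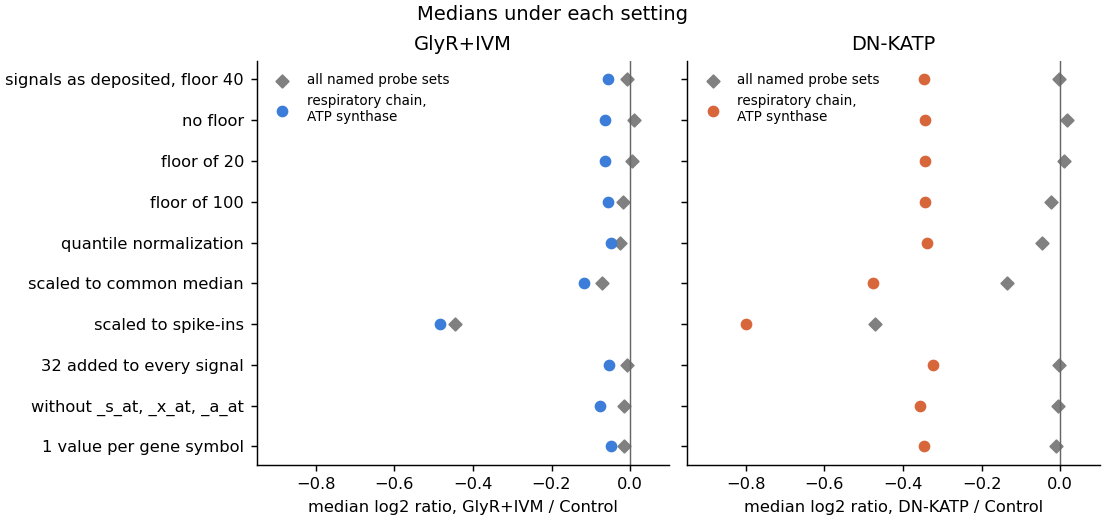
Median log2 ratio to the control array of the members (circles) and of all named probe sets (grey diamonds) under each floor, scaling and probe choice, for GlyR+IVM (left) and DN-KATP (right). In DN-KATP the members' median lies 0.29 to 0.36 below that of all named probe sets in each row, and in GlyR+IVM 0.02 to 0.07 below.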

How the data were processed

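RNA from 50 pooled stage 11 embryos per condition was hybridized to an Affymetrix *Xenopus laevis* Genome 2.0 array, 1 array each for control, GlyR+IVM and DN-KATP. The deposited values are signal intensities that the authors computed with the MAS5 algorithm, which corrects the background, summarizes the probe pairs of a probe set and scales each array on its own. Its version and the present or absent calls were not given in the sources used here. Such scaling fixes the mean of each array, so a ratio is relative to the other transcripts, and low signals are imprecise.

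Ratios were taken on the log2 scale with pandas 2.3.3. A probe set was called at 2-fold with a signal of at least 40 on the higher array. With 3 arrays no test could be run. The signal, the number of arrays and the differences between probe sets of a gene are among the limits on precision. Array control probe sets were left out. Genes were named from the platform annotation, and all 114 members matched a RefSeq entry of the same symbol. Levels of different genes were not compared. Members were grouped by signal only to set their ratios beside those of other probe sets of like signal.

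The members and lists were chosen with earlier results of these data known. Named were probe sets past 2-fold, the 2 highest and 2 lowest of each class by the mean of both log2 ratios, all of complex II, cyc1 and cycs, and their homeologs and other probe sets. Further members were named after their values were seen, as was the direct comparison of cox4i2.L. Alternatives were floors of 20 and 100 or none, 1.5-fold and 3-fold thresholds, scaling by quantiles, a common median or spike-ins, an offset of 32, omission of cross-hybridizing probe set types and 1 value per symbol.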

Additional observations from a re-analysis of the deposited data

Results flagged for a closer look

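At 2 members the GlyR+IVM and DN-KATP arrays lay on opposite sides of the control, and DN-KATP was more than 2-fold below GlyR+IVM. This difference was not tested, since each condition had 1 array. For atp5pd.S, the peripheral stalk gene of the ATP synthase, the log2 ratio of DN-KATP to GlyR+IVM was -1.36, from signals of 944 and 2426. For cox4i2.L, an isoform of complex IV subunit 4, it was -2.55, from signals of 9.24 and 54.2, the first below the floor of 40.

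The hybridization spike-ins, transcripts added to each array as a control (bioB, bioC, bioD and cre), gave signals above those of the control array at all 27 of their probe sets, with a median log2 ratio of 0.41 for GlyR+IVM and of 0.46 for DN-KATP. These probe sets repeat a few transcripts and are not separate observations. In a second set, the polyA spike-ins, 29 of 30 probe sets were above the control array in each comparison, with medians of 0.39 and 0.30.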

How the results depend on the processing

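No paired analysis was possible because each condition had 1 array. No replicate could be left out for the same reason. The median log2 ratio of the members in DN-KATP was -0.48 after scaling to a common median and -0.80 when scaled to the hybridization spike-ins, and in GlyR+IVM it was -0.48 on the spike-in scale. On that scale the cycs.S ratio in GlyR+IVM turned from 0.12 to -0.30. Counts of called members were small and moved with the settings. Each is given with the share of all probe sets called under the same setting. Lower in GlyR+IVM was 1 member with no floor (7.83%), a floor of 20 (4.78%), quantile normalization (3.56%) or a common median (3.38%), and 4 at 1.5-fold (8.65%) or on the spike-in scale (9.48%). Lower in DN-KATP were 2 with no floor (6.96%) or a floor of 20 (4.12%), 21 at 1.5-fold (8.23%), 0 at 3-fold (0.935%), 6 with a common median (3.66%) and 30 on the spike-in scale (9.88%). Higher in GlyR+IVM were 2 with a common median (4.22%) or with 32 added to every signal (1.65%), and 0 at 3-fold (1.63%) or on the spike-in scale (1.40%). Higher in DN-KATP were 2 at 1.5-fold (14.6%), and 0 at 3-fold (1.83%), with a common median (4.04%) or on the spike-in scale (1.72%). Higher in both were 0 under the last 3 of these (0.513%, 1.38% and 0.448%), and lower in both were 3 at 1.5-fold (2.83%) and 4 on the spike-in scale (3.33%). The arrays are the same under each setting, and a changed threshold, floor, offset or scale enters the call itself. All 8 class medians stayed below 0 in DN-KATP under the 9 alternatives run for them. Several of these could not have changed a sign. Scaling to a common median or to spike-ins lowers every DN-KATP ratio. The cycs class is 1 probe set of high signal, whose sign a floor or an offset cannot change. A move of 0.1 in a median was taken as a change, a limit set after the values were seen.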
